A study of Mus musculus with 2 samples.

Results

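The genes described here are 9 mouse genes of the hypoxia response, measured in 1 hybridized and 1 live sample of induced pluripotent stem cells (iPSCs), somatic cells that have been returned to a pluripotent state. They are Hif1a, Egln1, Egln3, Pdk1, Bnip3, Vegfa, Adm, Ndrg1 and P4ha1. Every probe set that the platform table assigns to 1 of these genes and to no other gene was taken, which gave 21 of the 20380 probe sets with 1 gene, for 9 of 12393 genes. The hybridized sample and the live sample carry the same description in the labels, iPSCs of the source iPS-2i grown in serum medium for mouse embryonic stem cells with 2i, inhibitors of MEK and GSK3 kinases that keep such cells naive. No strain, genotype, clone, passage or oxygen level is given in the labels for either sample, nor what probe or target the hybridization used. RNA of each sample was amplified, labelled with biotin and read on 1 array, so no value has a replicate error and no difference can be tested. Each difference below is hybridized minus live, in log2 units. The design leaves hybridization and every other difference between the 2 preparations inseparable, and in bulk RNA fewer cells of a type and less RNA per cell cannot be told apart.

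Cells sense oxygen through prolyl hydroxylases of the Egln family, which mark the alpha subunit of the hypoxia-inducible factor (HIF) for ubiquitination by the Vhl complex when oxygen is present. When oxygen is scarce the alpha subunit escapes hydroxylation, pairs with Arnt and binds a short core motif in the regulatory DNA of its targets, whose products shift pyruvate away from the mitochondria, remove mitochondria, grow vessels and build collagen. Control acts mainly on the HIF protein, so the level of the Hif1a transcript alone does not measure HIF activity. Pluripotent stem cells are known for a metabolism rich in glycolysis, to which HIF targets such as Pdk1 contribute.

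Both arrays read as pluripotent cells. All 8 pluripotency markers were at a mean log2 value of 5 or more, the level used below, with values of 10.83 or more in the hybridized sample. Of 10 fibroblast markers 2 reached the level, Vim (12.92 on the hybridized array and 13.07 on the live one) and Col1a1 (4.46 and 6.17). Col1a1 did so only through its live value. Of 5 endothelial markers 2 did, Pecam1 (7.08 and 6.67) and Tek (7.64 and 8.03), while Cdh5, Emcn and Kdr stayed under it. The 7262 genes that reached the level had a median difference of -0.17. The 18 probe sets of the hybridization controls, bacterial and phage sequences that are added, already labelled, to the hybridization mix, had a median difference of -0.80, between -1.22 and -0.15, so a scale set on them would add 0.80 to every difference given here. The control probe sets for the 5′ end of transcripts gained on those for the 3′ end in the hybridized sample, by 2.52 for Actb, 1.81 for Gapdh and 0.50 for Tfrc. The 3′ probe sets differed by -0.76 for Actb and -0.85 for Gapdh, but by 1.38 for Tfrc. The 5′ probe set of Tfrc read only 4.08 on the live array, so its gain is the least certain. The part of either shift in the differences of the hypoxia genes was not tested.

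Stretches upstream of 4 of the genes are shown because, among those at the level, these genes had the widest differences that were not split between their probe sets, Hif1a and Pdk1 upward, Egln3 and Bnip3 downward. Each is the 250 bases before an annotated RefSeq transcript start in assembly GRCm38.p6, written 5′ to 3′ on the strand of the gene. Capitals mark matches to the HIF core motif, searched as ACGTG and GCGTG on both strands. On the opposite strand they read CACGT and CACGC, and the palindrome CACGTG counts as 2 overlapping matches.
Hif1a (chr12:73907617-73907866, plus strand): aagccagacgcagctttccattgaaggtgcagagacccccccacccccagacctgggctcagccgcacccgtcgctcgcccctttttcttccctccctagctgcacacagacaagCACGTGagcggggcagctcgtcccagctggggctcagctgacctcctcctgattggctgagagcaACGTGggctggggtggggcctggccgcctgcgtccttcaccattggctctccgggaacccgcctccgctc
Egln3 (chr12:54203875-54204124, minus strand): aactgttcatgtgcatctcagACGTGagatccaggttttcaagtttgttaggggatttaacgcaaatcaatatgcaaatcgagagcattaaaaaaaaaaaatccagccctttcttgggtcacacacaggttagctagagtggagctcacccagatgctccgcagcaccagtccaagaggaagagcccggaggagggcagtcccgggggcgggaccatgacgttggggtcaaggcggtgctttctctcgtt
Pdk1 (chr2:71872974-71873223, plus strand): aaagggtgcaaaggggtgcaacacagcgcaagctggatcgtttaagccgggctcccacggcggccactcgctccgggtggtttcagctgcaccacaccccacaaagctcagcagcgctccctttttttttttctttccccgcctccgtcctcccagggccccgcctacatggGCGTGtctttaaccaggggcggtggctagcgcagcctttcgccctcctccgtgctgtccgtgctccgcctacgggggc
Bnip3 (chr7:138909507-138909756, minus strand): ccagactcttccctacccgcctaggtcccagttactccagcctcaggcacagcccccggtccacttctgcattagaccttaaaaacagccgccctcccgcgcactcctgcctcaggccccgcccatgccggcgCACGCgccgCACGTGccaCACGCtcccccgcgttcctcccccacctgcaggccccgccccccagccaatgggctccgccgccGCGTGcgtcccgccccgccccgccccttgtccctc

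The Bnip3 stretch held 5 matches, that of Hif1a 3, and those of Egln3 and Pdk1 1 each. In Bnip3, 4 of the matches lay within a short cluster whose first bases stand at -117, -108, -107 and -99 relative to the start, and the fifth at -35. The single match of Pdk1 began at -78 and that of Egln3 at -229. Pdk1 and Vegfa each have another start in the sequence table, and for each gene 1 of its stretches held 0 matches. For Pdk1 the empty stretch lies before the downstream start. For Vegfa it lies before the upstream start (chr17:46032378-46032627, minus strand). The 2 matches of Vegfa lie before its downstream start (chr17:46025164-46025413), in a stretch inside the gene, past its upstream start. They are therefore not matches upstream of the gene, and Vegfa is counted below through that stretch alone. The sequence table held 10 such stretches for 8 of the 9 genes, and 8 of the 10 held at least 1 match, 1 for each of these 8 genes. Among all 32851 stretches of the same length in that table, 38.6% held a match and 16.7% held 2 or more. Both forms of the motif contain CG, and these stretches were not matched for base composition. The shares therefore cannot show that the motif is enriched in the hypoxia genes. Genes higher and genes lower in the hybridized sample both carried the motif, and a match is a run of letters and not a measured binding site.

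**Figure D1:**
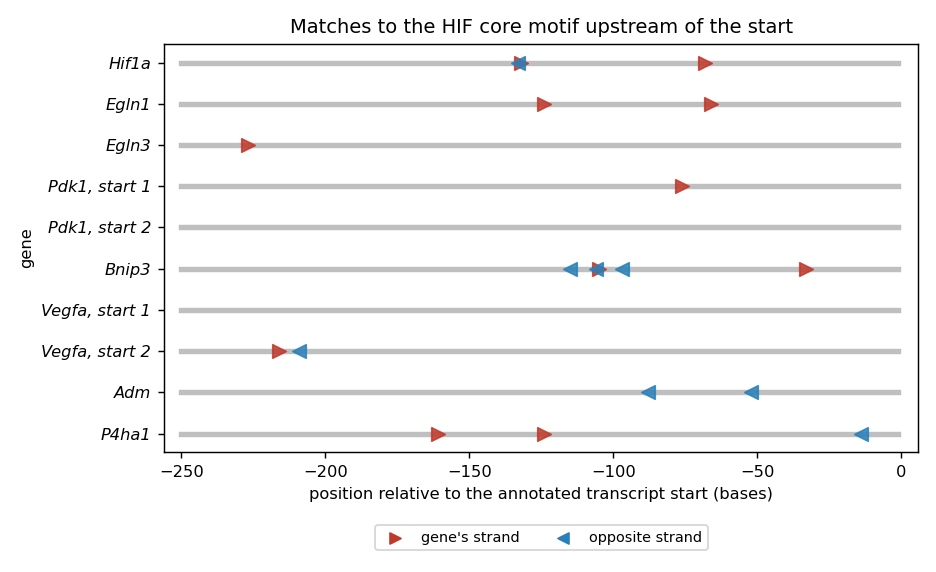
Matches to the HIF core motif in the 250 bases before each annotated start of 8 hypoxia genes, with the distance from the transcript start in bases on the x axis and 1 line for each start. Red triangles stand for matches on the strand of the gene and blue triangles for matches on the opposite strand. Of the 10 stretches 8 hold a match, and Bnip3 has the most with 5. The matches of Vegfa lie inside the gene, before its downstream start.

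Hif1a (Entrez 15251), the oxygen-regulated alpha subunit of HIF-1, read higher in the hybridized sample on all 4 of its probe sets. The brightest read 12.06 on the hybridized array and 11.44 on the live one, a difference of 0.62 or 1.54-fold. Its other probe sets at the level read 10.67 against 10.26 and 8.35 against 7.94, a difference of 0.41 on each. The remaining one was under the level, at 4.16 on the hybridized array and 3.26 on the live one. Of 950 genes with at least 3 probe sets at the level, 7.37% were as high as 0.41 or more on the 3 brightest. Where differences between the arrays are narrowest, among the 1521 genes averaging 11 or more, 9.99% were as far up as the brightest probe set of Hif1a.

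The hydroxylases that act on the HIF alpha subunits did not read higher on every probe set as Hif1a did. Egln3 (Entrez 112407), a prolyl hydroxylase that is itself a HIF target, read lower in the hybridized sample on both probe sets. The values were 7.33 against 8.09 on the brighter probe set and 6.60 against 7.38 on the other, differences of -0.76 and -0.78. Both differences lie further from 0 than the median gene, and 7.50% of 2720 genes with at least 2 probe sets at the level were as low on their brightest pair. Differences are wide at this level, however, and 29.6% of the 2009 genes averaging from 7 to under 9 were as low as Egln3 on the brightest probe set. Centred on the hybridization controls, the differences of Egln3 were 0.04 and 0.02, so its direction rests on the scale. Egln1 (Entrez 112405), the main oxygen sensor of the family, was split between its probe sets. The brighter read 8.48 on the hybridized array and 8.40 on the live one, and the other 6.32 against 6.96, a difference of -0.64. A gap that wide between the brightest pair of probe sets was common, occurring in 42.7% of the 2720 genes.

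Pdk1 (Entrez 228026), the pyruvate dehydrogenase kinase that keeps pyruvate out of the citric acid cycle, was the furthest above the live sample of the 9 genes. Its brighter probe set read 11.50 in the hybridized sample against 10.51 in the live sample, a difference of 0.99 that falls just short of 2-fold. The other read 10.71 against 9.40, a difference of 1.31 or 2.48-fold. The 2 probe sets therefore point the same way, and 77 of 2720 genes, or 2.83%, were at least 0.99 higher on their brightest pair. Of the 1521 genes averaging 11 or more, 2.96% were as far up as the brighter probe set of Pdk1. Its mean of 11.005 lies at the lower edge of that range, and the share over all genes at the level was 8.62%.

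Bnip3 (Entrez 12176), a mitochondrial membrane protein that marks mitochondria for autophagy, mirrored Pdk1 in size. It read 9.65 on the hybridized array and 10.64 on the live one on its only probe set, a difference of -0.99. Without another probe set the value has no internal check, and 10.9% of the 2325 genes averaging from 9 to under 11 were as low. Bnip3 stayed below 0 under every scale tried, at -0.19 when centred on the hybridization controls. Pdk1 and Bnip3, both HIF targets that act on mitochondria, thus lay on opposite sides of the live sample on these arrays.

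Among the secreted vessel factors, Vegfa (Entrez 22339), the growth factor that directs vessels toward tissue short of oxygen, was slightly higher in the hybridized sample. It read 6.82 against 6.42 on the brighter probe set and 3.86 against 3.47 on the other, which is under the level; the differences were 0.40 and 0.39. Of the 1407 genes averaging from 5 to under 7, 17.5% were as high. Adm (Entrez 11535), which encodes the vasodilator peptide adrenomedullin, was under the level on its only probe set, at 3.45 on the hybridized array and 4.16 on the live one. Values that low have no reliable order, and Adm is left out of the counts below.

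Ndrg1 (Entrez 17988), a cytoplasmic protein induced by hypoxia and by differentiation, gave probe sets that disagree in direction. The brightest read 8.13 on the hybridized array and 8.97 on the live one, a difference of -0.84, and the second 5.97 against 6.54, a difference of -0.57. The third read 5.60 against 5.28, which is 0.32 higher, and the pair under the level were also higher, at 3.24 against 2.99 and 3.31 against 2.84. Both lower probe sets carry a suffix, _x_at or _s_at, that the maker gives to probes shared between transcripts or gene families, and so does the dimmest of the higher ones, whereas the third has none. The suffix _a_at, for probes shared by transcripts of the same gene, is on the brightest probe sets of Hif1a and Pdk1. Ndrg1 therefore differed by -0.84 on its brightest probe set, by 0.32 without suffixed probe sets and by -0.07 when its 5 probe sets were averaged. P4ha1 (Entrez 18451), the catalytic subunit of the prolyl hydroxylase that matures collagen, lay near the live sample. It read 7.05 on the hybridized array and 7.25 on the live one, with 3.73 against 3.58 on a probe set under the level. Of the genes averaging from 7 to under 9, 51.2% were as low as P4ha1 or lower.

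**Figure D2:**
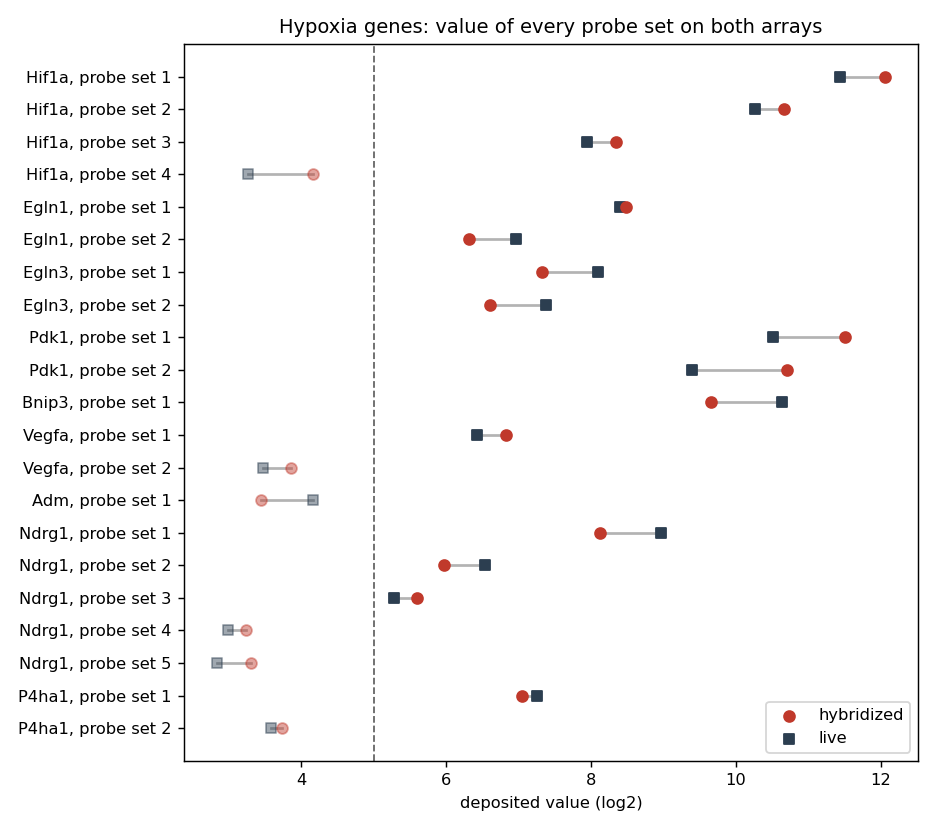
Deposited log2 values (x axis) of all 21 probe sets of the 9 hypoxia genes (y axis, numbered from the brightest within each gene), with the hybridized sample as red circles and the live sample as dark squares, 1 array each. The dashed line marks the level of 5 and the 6 paler pairs have means under it; the hybridized sample is to the right on all 4 probe sets of Hif1a and both of Pdk1, and to the left on both of Egln3 and on Bnip3.

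As a group the hypoxia genes were divided. On the brightest probe set of each gene, 4 of the 8 genes at the level were above 0 and 4 below, and 0 were at least 2-fold higher or 2-fold lower in the hybridized sample. The background was 8.43% of all genes at the level for 2-fold higher and 15.4% for 2-fold lower, together 23.8%. At 1.5-fold, Hif1a and Pdk1 were higher, 2 of 8 against 17.5% of all genes, and Egln3, Bnip3 and Ndrg1 were lower, 3 of 8 against 29.9%. The median of the 8 genes was -0.06, beside -0.17 for all genes, of which 58.5% were below 0. Counted by probe set, 15 of the 21 were at the level, 8 above 0 and 7 below, with a median of 0.08. A single one, the second of Pdk1, was at least 2-fold higher and 0 were 2-fold lower, while of all 11407 probe sets at the level 13.1% were 2-fold higher and 12.8% lower, together 25.9%. With so few genes these counts stand near the background.

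**Figure D3:**
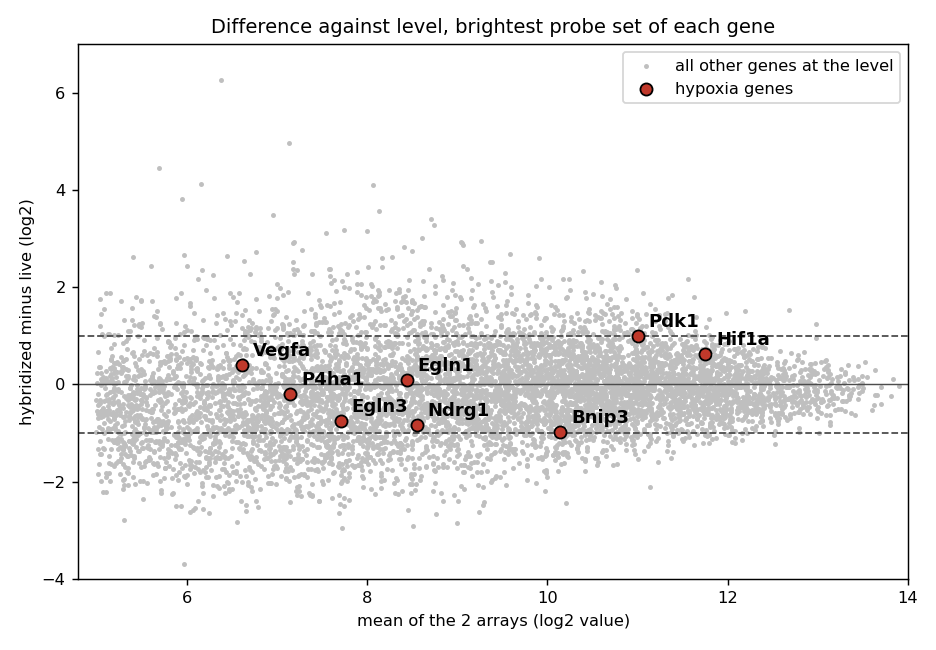
Difference between the hybridized and the live sample (y axis, log2) against the mean of the 2 arrays (x axis, log2) for the brightest probe set of each gene at the level, with the 8 hypoxia genes in red and other genes in grey. Dashed lines mark 2-fold; Pdk1 at 0.99 and Bnip3 at -0.99 sit just inside them, and the spread of all genes narrows to the right.

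For Hif1a, Pdk1 and Egln3 the choice of scale moved the difference more than the choice of probe set did. Centred on the median gene, Pdk1 was 1.16 higher and the only gene of the 8 at least 2-fold apart. Of all 7262 genes, 814 were 2-fold higher and 833 lower on that scale. Centred on the hybridization controls, Pdk1 differed by 1.79, Hif1a by 1.42 and Vegfa by 1.20, and 0 of the 8 were 2-fold lower. All genes on the control scale had 2310 higher and 206 lower. Over all 10 settings of scale, level and probe set, Hif1a lay between 0.41 and 1.42 and Pdk1 between 0.95 and 1.79, above 0 in each. Bnip3 lay between -1.05 and -0.19, below 0 in each. Vegfa, dropped at a level of 7, was above 0 in the other 9. Egln3 was below 0 in 9 of 10, Ndrg1 in 9 and P4ha1 in 8, and Egln1 was above 0 in 9. Settings that change only the level cannot move a gene's difference. They repeat the deposited value, so these counts overstate how stable a direction is. With probe sets averaged, Egln1 differed by -0.28 and Ndrg1 by -0.07, and without suffixed probe sets Ndrg1 differed by 0.32.

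**Figure D4:**
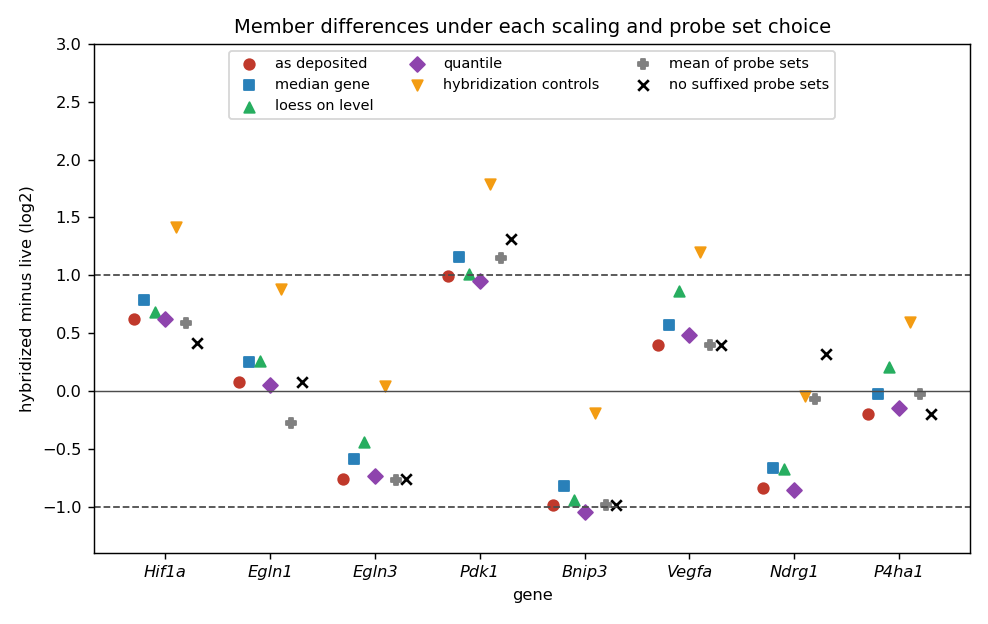
Difference between the hybridized and the live sample (y axis, log2) for the 8 hypoxia genes at the level (x axis) under 5 scales and 2 other choices of probe set. Dashed lines mark 2-fold; Hif1a, Pdk1 and Vegfa lie above 0 and Bnip3 below 0 at every symbol, whereas Egln1, Egln3, Ndrg1 and P4ha1 cross 0.

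The other parts of the oxygen-sensing machinery were divided, with shares near the background. Of 16 listed genes 13 had a probe set of their own and 8 were at the level, where 5 were below 0, 0 were 2-fold higher (8.43% of all genes) and 2 were 2-fold lower (15.4% of all genes). The median was -0.48, and 0.12 without suffixed probe sets. Egln2, the remaining prolyl hydroxylase, read 8.95 on the hybridized array and 9.98 on the live one, a difference of -1.03. Hif3a, an alpha subunit that can restrain the others, read 4.68 against 6.15, so its mean reached the level only through the live array. Its other probe sets were under the level, with differences of -0.20 and -0.49. Of the ubiquitin ligase that takes up hydroxylated HIF, the subunits at the level were lower by less on their brightest probe sets. Elob read 11.89 against 12.64, Eloc 11.49 against 11.98 and Cul2 11.13 against 11.60. The other probe sets of Eloc were higher in the hybridized sample, by 0.30 to 1.81, and the second of Elob differed by -0.17 and of Cul2 by 0.04. Crebbp, a coactivator of HIF, was higher at 9.68 against 8.83 on its only probe set. Cited2, which competes for that coactivator, read 11.45 against 11.33 and, on its other probe set, 4.97 against 5.07. Siah1a, a ligase that removes Egln proteins, read 9.74 against 9.57, but 8.24 against 10.11 on another probe set. Under the level were Epas1, the HIF-2 alpha subunit (4.50 against 5.46), Vhl (4.82 against 3.23), Arnt (4.58 against 4.73), Arnt2 (2.75 on each array) and Siah2 (3.91 against 4.59). Under control centring the median of this list was 0.32 and 0 of its genes were 2-fold lower, beside 206 of 7262 genes. Hif1an, Ep300 and Rbx1 were not analysed here.

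A longer list of 48 HIF targets, none among the 9 genes, had most of its members below 0. Of 41 with a probe set of their own, 29 were at the level; 5 were above 0 and 23 below, beside 58.5% of all genes below. Only 1 was 2-fold higher (8.43% of all genes) and 5 were 2-fold lower (15.4% of all genes), so the 2-fold counts stand near the background. Their median was -0.43, or -0.26 centred on the median gene and 0.37 centred on the controls. Fam162a, a mitochondrial protein linked to hypoxic cell death, was the gene 2-fold higher, at 10.77 on the hybridized array and 9.58 on the live one. Gys1, glycogen synthase, was the lowest at 5.66 against 7.35, although its other probe set, under the level, read 4.21 against 3.28. Plod1, a lysyl hydroxylase of collagen, read 6.64 against 7.91, and Kdm4b, a histone demethylase, 5.69 against 6.89. Vldlr, a lipoprotein receptor, read 5.07 against 6.26, while its dimmer probe sets, all under the level, differed by -0.38, 0.83 and 0.82. Sap30, a subunit of the Sin3 histone deacetylase complex, read 10.44 against 11.48. Of these, Plod1, Kdm4b, Sap30 and Fam162a have a single probe set. Igfbp3, an insulin-like growth factor binding protein, differed by -0.90.

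Targets of glucose uptake, glycolysis and lactate export are given next by their values, without a count, and not all of those at the level. Ddit4 and Hmox1, given last, lie outside these groups. Slc2a1, a glucose transporter, read 12.90 on the hybridized array and 13.32 on the live one. Slc2a3, another, read 12.85 on each on its brightest probe set. The dimmer probe sets of Slc2a3 differed by -0.54, by -0.14 and, under the level, by 1.08. Aldoa, aldolase, read 13.11 against 13.45, Hk2, hexokinase, 12.10 against 12.16, and Pgk1, phosphoglycerate kinase, 12.41 against 12.78. Ldha, lactate dehydrogenase, stood lower at 12.22 against 12.92, and the lactate exporter Slc16a3 at 8.14 against 9.06. Ddit4, an inhibitor of mTORC1, read 11.74 against 11.58 and Hmox1, heme oxygenase, 10.16 against 9.92. Hk2, Pgk1, Ldha, Slc16a3, Ddit4 and Hmox1 were chosen after their values were seen.

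Relatives and partners of the 9 genes were set beside them. Of 28 such genes, 23 had a probe set of their own and 12 were at the level; 0 were 2-fold higher (8.43% of all genes), 1 was 2-fold lower (15.4%), and the median was -0.165, close to that of all genes. The gene 2-fold lower was Pdk2, which read 4.74 on the hybridized array and 6.33 on the live one. Its mean reached the level only through the live array, so this call depends on where the level is set. The other kinases of pyruvate dehydrogenase, Pdk3 (9.34 against 9.23) and Pdk4 (9.27 against 8.98), were 0.11 and 0.29 higher. Of the enzyme they act on, Pdha1 read 11.90 against 11.91 on its brighter probe set but 9.32 against 8.14 on the other, and Pdhb 11.20 against 11.64 and 5.17 against 5.82. Vegfb read 6.01 against 6.74, Vegfc, the lymphatic growth factor, 8.29 against 7.97, and Vegfd 5.82 against 6.14. The VEGF receptors Flt1 and Kdr and the adrenomedullin receptor Calcrl were under the level on each of their probe sets. P4hb, the partner subunit of P4ha1, read 11.94 against 12.30, and P4ha2 was under the level at 4.10 against 4.93. In the Ndrg family, Ndrg2 read 6.88 against 6.26, Ndrg3 8.45 against 8.19 and Ndrg4 8.76 against 9.09.

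**Figure D5:**
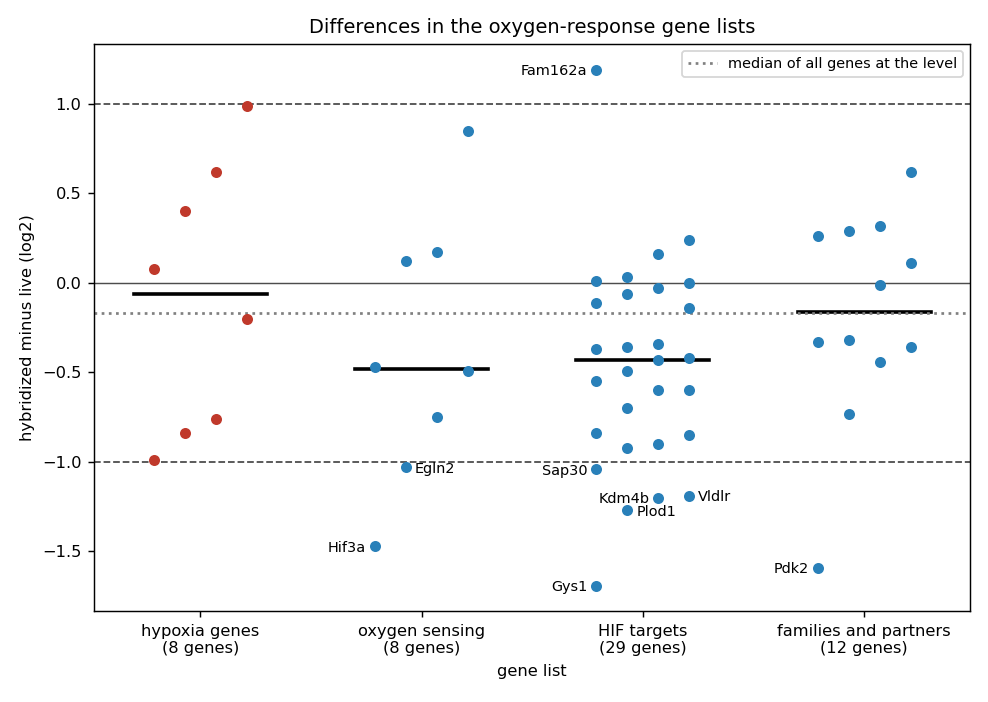
Difference between the hybridized and the live sample (y axis, log2) for genes at the level in 4 gene lists (x axis), with 1 point for the brightest probe set of each gene and a black bar at each list's median. The dotted line is the median of all genes, -0.17, dashed lines mark 2-fold and genes beyond them are named; the medians are -0.06 for the hypoxia genes, -0.48 for oxygen sensing, -0.43 for HIF targets and -0.165 for families and partners.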

How the data were processed

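RNA of 1 hybridized and 1 live sample was measured on an Affymetrix mouse array, 1 array per group. The authors deposited 1 value per probe set, taken here as log2; GCRMA and affy are named as its tools per the submitters' processing notes, with versions not given in the sources used here. The log base was inferred from the method and from values of 1.02 to 14.24. GCRMA removes background that depends on base composition, normalizes arrays and summarises probes, so low values are compressed and have no order. Of 22690 probe sets, 64 are controls; of the rest 20380 have 1 gene in the platform table, 691 several and 1555 none, and only those with 1 were used. Symbols were checked by Entrez ID against RefSeq, where 12369 of 12393 matched.

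Each gene was read on its brightest probe set by the mean of the arrays and counted where that mean was 5 or more. This level is a set limit and not a detection call. No test, p-value or interval is possible with 1 array per group, and array number limits the precision. Values of different probe sets are not on a common scale; level served only to choose probe sets, to set the limit and ranges of level, and to pick named genes. The gap between the brightest pair of probe sets, divided by the square root of 2, had an SD of 0.73 over 2720 genes; it covers no error of preparation.

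The genes and lists were chosen with earlier results of these data known. Named are each of the 9 genes with every probe set, each oxygen-sensing gene on the array, and, of the other lists, genes 2-fold apart and the 3 highest and 3 lowest in level; other names were chosen after their values were seen. The code was run on simulated data with less noise than the spread between probe sets of these arrays. The simulated shifts were wider than the differences of the 9 genes. That run checks the arithmetic only and gives no error for the values reported. Upstream sequences come from RefSeq (GRCm38.p6), matched by symbol; the expression files name no build. Python 3.11.15 with numpy 2.4.6, pandas 2.3.3, statsmodels 0.14.6 and matplotlib 3.10.9 was used.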

Additional observations from a re-analysis of the deposited data

How the results depend on the processing

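The arrays, 1 per group, limit every value here, and no setting supplies replicate error. No paired analysis was possible because each group holds 1 array. Centred on the hybridization controls, 3 hypoxia genes were 2-fold higher and their median was 0.74; the oxygen-sensing list had 1 gene higher, 0 lower and a median of 0.32, the HIF targets 2 higher, 0 lower and a median of 0.37, the families and partners 4 higher, 0 lower and a median of 0.635, and all genes 2310 higher and 206 lower. Centred on the median gene, 1 hypoxia gene was 2-fold higher, the oxygen-sensing list had 1 higher and 1 lower, and the HIF targets had a median of -0.26. Of all 7262 genes, 814 were higher and 833 lower on that scale. After a loess correction on level (span 0.3), 1 hypoxia gene was higher with a median of 0.24. The correction left 0 oxygen-sensing genes and 2 HIF targets lower, and 1 family or partner gene higher with a median of 0.12 for that list. Of all genes 838 were higher, and 708 were lower, against 1115 as deposited. Quantile normalization put 1 hypoxia gene, Bnip3 at -1.05, 2-fold lower, beside 1122 of 7261 genes. Averaging a gene's probe sets gave 1 of 8 hypoxia genes higher, 1 of 7 oxygen-sensing genes and 3 of 27 HIF targets lower. The median of the targets was then -0.19, and of all 6881 genes 608 were higher and 779 lower. With every probe set ending in _a_at, _s_at or _x_at left out, 1 hypoxia gene was higher, Pdk1 at 1.31, with a median of 0.20 for the 8. The oxygen-sensing list, now of 7 genes, had 1 gene higher and a median of 0.12. Of the 5802 genes left, 597 were higher and 800 lower. At a level of 7, 1 oxygen-sensing gene, 2 HIF targets, 0 family or partner genes and 713 of 5855 genes were 2-fold lower. With the level set to 4, 1 oxygen-sensing gene was 2-fold higher, beside 643 of 8005 genes. With the level removed it was again 1, beside 664 of 12393 genes. At 1.5-fold, 2 hypoxia genes were higher and 3 lower, 1 oxygen-sensing gene was higher, 12 HIF targets were lower, 1 family or partner gene was higher and 2 lower, and 1268 of all genes were higher and 2169 lower. At 4-fold, 0 oxygen-sensing, HIF target or family genes were apart in either direction, and 87 of all genes were higher and 113 lower. The changes with threshold and with level follow from the number of genes each lets through; the cause of the others was not tested.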

Other observations

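Several genes of the wider lists gave differences of unlike size or direction on their own probe sets. Siah1a, a ubiquitin ligase for Egln proteins, read 8.24 on the hybridized array and 10.11 on the live one on 1 other probe set, a difference of -1.87, whereas its brightest differed by 0.17 and the other by 0.14. Eloc, a subunit of the Vhl complex, had differences of -0.49, 0.30, 1.40 and 1.81 from its brightest to its dimmest probe set. Ero1a, a hypoxia-induced oxidase of the endoplasmic reticulum, differed by 0.03 on its brightest probe set, by 0.38 on the second and by 2.01 on the dimmest, which read 7.73 on the hybridized array and 5.72 on the live one. Plod2, a collagen lysyl hydroxylase, differed by -0.03 and 1.26, and Jmjd6, an oxygen-dependent hydroxylase, by -0.43 and -0.50, while its dimmest read 8.98 against 7.48. These genes were chosen after their values were seen. Over all 2720 genes with at least 2 probe sets at the level, the second brightest had the higher difference in 1651, with a median gap, second minus brightest, of 0.23, and the signs were opposite in 35.3%. For the 5 hypoxia genes with such a pair, the signs were opposite in 1, Egln1, and the median gap was -0.02.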
